A study of Mus musculus with 18 samples.

Results

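Hematopoietic growth factors act on myeloid cells through a small set of surface receptors, and the mRNAs of 7 of them were followed here in mice with a disabled cytosolic DNA response. The genes were chosen by name, as the receptors for M-CSF, G-CSF, GM-CSF, IL-3 and IL-5, with earlier results of these data known. All 7 are listed in both of the authors' deposited tables, among 14423 genes for bone marrow and 21830 for spleen, of which 13777 are in both. RNA from dissociated cells had been read by QuantSeq, a 3' mRNA method that gives tags from the polyadenylated end of a transcript, so that a count does not scale with transcript length.

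The mice were C57BL/6 of an age that the labels do not state. Bone marrow came from 4 Cgas-/- samples, which lack the DNA sensor cGAS, and from 4 samples called dKO, of genotype Trex1-/-;Sting1gt/gt, which lack the exonuclease TREX1 and carry the goldenticket allele that leaves no functional STING. Spleens came from dKO mice that were lethally irradiated and given marrow, 5 with Cgas-/- marrow and 5 with dKO marrow, and were taken 12 weeks later. Both arms therefore interrupt the same pathway, at different steps, and no wild-type group was compared here. In the spleen comparison all recipients were dKO, so any host cells left after irradiation are dKO in both groups. The series title names the question, which is whether cGAMP made in Trex1-deficient tissue passes to other cells. All log2 fold changes below are Cgas-/- over dKO, or Cgas-/- marrow over dKO marrow, so a negative value means lower with Cgas-/-.

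M-CSF acts on a receptor tyrosine kinase encoded by Csf1r, which macrophages and monocytes need to survive. G-CSF acts on a homodimer encoded by Csf3r, which drives neutrophil production. GM-CSF, IL-3 and IL-5 each bind their own alpha subunit, encoded by Csf2ra, Il3ra and Il5ra, which then pairs with the signalling beta common subunit encoded by Csf2rb. Mice have a second beta gene, Csf2rb2, whose product serves IL-3 only. The alpha and beta subunits have no kinase of their own and signal through JAK2 and STAT5.

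The pair of beta subunit genes is shown first, because a count for one could hold reads of the other. On GRCm38, the assembly of mm10, they lie close together on chromosome 15, Csf2rb on the plus strand (78325752 to 78353847) and Csf2rb2 on the minus strand (78282507 to 78305721), and their annotated coding sequences in GENCODE M21 are 95.2% identical over 2631 aligned bases. The first 120 coding bases are printed with the 4 bases that differ in capitals. Each run crosses an intron in the genome, chr15:78335207-78336379 for Csf2rb and chr15:78297071-78298229 for Csf2rb2.
Csf2rb: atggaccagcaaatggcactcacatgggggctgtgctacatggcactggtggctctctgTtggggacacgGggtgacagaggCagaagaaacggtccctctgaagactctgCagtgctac
Csf2rb2: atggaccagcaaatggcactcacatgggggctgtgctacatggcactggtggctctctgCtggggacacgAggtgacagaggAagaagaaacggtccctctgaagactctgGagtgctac
QuantSeq tags come from the other end. After the stop codon the annotated transcripts were 90.2% identical over 1576 aligned bases, and within the last 500 bases of each the longest run shared without a mismatch with the other gene's transcript was 36 bases. None of the 451 words of 50 bases in that stretch of either transcript was present in the other. Tags that long from these annotated ends would differ between the genes, but the sources used here do not give the authors' read length or counting rule, so the split between Csf2rb and Csf2rb2 remains uncertain.

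The other 5 genes lie on separate chromosomes, and none is on chromosome 9, which carries Trex1 and Cgas. Csf1r is on chromosome 18 (61100598 to 61132149, plus strand), Csf3r on chromosome 4 (126024550 to 126044440, plus) and Csf2ra on chromosome 19 (61223957 to 61228429, minus). Il3ra is on chromosome 14 (14346275 to 14356011, plus) and Il5ra on chromosome 6 (106710357 to 106749037, minus). Csf1r overlaps the gene Hmgxb3 on the opposite strand and Il3ra overlaps an annotated antisense RNA, and the sources used here do not say whether counting used strand.

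Cgas and Trex1 differed in the direction the labels give, which is all that 3' tags outside a deleted part can show, and the Sting1 allele was not checked. The authors' deposited tables put the log2 fold change of Cgas at -1.13 ± 0.155 for bone marrow (± is the standard error throughout) and at -0.92 ± 0.217 for spleen, and that of Trex1 at 1.45 ± 0.178 and 2.71 ± 0.199, each past a DESeq2 adjusted p of 0.05. Y-linked transcripts separated the spleen groups, with the authors' deposited table giving Ddx3y -4.76 ± 0.481 (DESeq2 adjusted p = 1.10e-19), so the sex of the cells and the marrow genotype cannot be told apart there. Bone marrow carried neutrophil markers and spleen carried monocyte and macrophage markers, and these cells use some of the receptors. Other cells were less well covered, since the means of 8 eosinophil markers in spleen ran from 1.03 to 147 normalized counts. The deposited means imply summed levels of 14 neutrophil markers of 1.01e+06 normalized counts in Cgas-/- marrow and 1.12e+06 in dKO marrow, and of 14 monocyte and macrophage markers of 3946 in spleens with Cgas-/- marrow and 4196 in spleens with dKO marrow.

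The levels of the receptor mRNAs differed widely within each tissue. In bone marrow, the authors' deposited table listed mean normalized counts over all 8 libraries of 1693 for Csf3r, 1474 for Csf2rb, 1162 for Csf1r and 1042 for Csf2ra. Csf2rb2 followed with 159, Il3ra with 47.1 and Il5ra with 14.7 in the same deposited table. The beta common subunit mRNA was thus listed above each of the alpha subunit mRNAs, and the IL-5 alpha subunit was the rarest. A fitted spread over libraries can be derived from each DESeq2 standard error, and on that basis the ranges of mean ± 1 fitted SD overlapped between Csf3r and Csf2rb and between Csf1r and Csf2ra, and between no other neighbours in the order.

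Spleen had another order. Csf1r led the authors' deposited table with a mean of 753, followed by Csf2rb with 269, Csf2ra with 80.4 and Il5ra with 47.3. Csf3r had 38.6, Csf2rb2 31.6 and Il3ra 22.4 in that deposited table. Csf1r made up 60.6% of the summed means of the 7 genes in spleen and 20.8% in bone marrow, while Csf3r made up 3.11% in spleen and 30.3% in bone marrow. These are shares within each table, because the tables were normalized separately and levels are not compared across them. The ranges of mean ± 1 fitted SD overlapped in spleen for Il5ra with Csf3r, Csf3r with Csf2rb2, and Csf2rb2 with Il3ra.

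**Figure D1:**
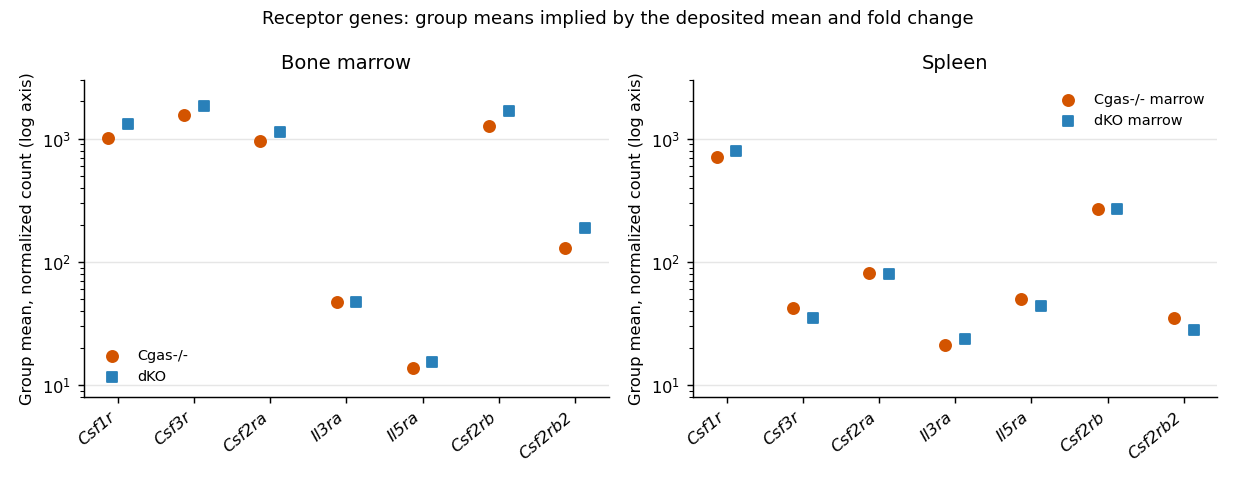
Group means of the 7 receptor genes as normalized counts on a log axis, computed from the deposited mean and fold change, with no error shown; circles are Cgas-/- and squares dKO, for bone marrow (left) and for spleens by marrow genotype (right). In bone marrow the circle lies below the square for all 7 genes, by the least for Il3ra (47.0 against 47.2), and in spleen for Csf1r and Il3ra.

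In untransplanted bone marrow, the comparison asks how marrow of the 2 genotypes differed. All 7 receptor genes had a log2 fold change below 0, as had 50.5% of all genes, though Il3ra lay almost at 0. The mRNAs of the beta common subunit and of the M-CSF receptor fell in Cgas-/- marrow past the test. Csf2rb fell by 25.3% and Csf1r fell by 22.8%. The G-CSF receptor, the GM-CSF alpha subunit and the IL-3 beta subunit had smaller or less precise differences that did not pass. The IL-3 and IL-5 alpha subunits were rare and had wide intervals. By the authors' deposited table, 2 of the 7 passed a DESeq2 adjusted p of 0.05, both lower, where 0.534% of all genes passed and 0.361% passed as lower. At an unadjusted p under 0.05, 5 of 7 were lower, against 4.65% of all genes. The receptors were chosen with earlier results of these data known, so these shares describe them and test nothing. All genes also include rare ones, with a median standard error of 0.614 under a mean of 20 normalized counts, against 0.166 from there up. The median over the 7 genes was -0.26, against -0.0023 over all 14423 genes.

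Csf2rb was the clearest of them. Values per library were not used here; the deposited mean and fold change imply group means of 1260 normalized counts in Cgas-/- marrow and 1687 in dKO marrow. The log2 fold change in the authors' deposited table was -0.42 ± 0.0875 (DESeq2 adjusted p = 0.00115), with a 95% interval of -0.59 to -0.25. By p it ranked 19th of the 14423 genes. In the cell, this subunit carries the signal of GM-CSF, IL-3 and IL-5.

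Csf1r implied group means of 1013 normalized counts in Cgas-/- marrow and 1312 in dKO marrow. Its log2 fold change was -0.37 ± 0.0988 by the authors' deposited table (adjusted p = 0.0356, DESeq2), with a 95% interval of -0.57 to -0.18. Csf1r ranked 65th of the 77 called genes by p and lay close to the limit of what could be called, since at its standard error a change of 0.36 was the smallest that would have passed.

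The tests treat the Wald score as normal, which is the authors' choice. With a t distribution of 6 degrees of freedom both calls were lost (adjusted p = 0.986 for each), as were all but 1 of the 77 calls over all genes, and with the Wald scores divided by their robust spread of 1.10 the adjusted p of Csf1r was 0.133 and that of Csf2rb 0.00934. Nothing in the labels states that the libraries came from separate mice, so these p-values describe the spread between libraries, which may be technical.

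The second beta gene, Csf2rb2, had the largest log2 fold change of the 7, at -0.53 ± 0.168 in the authors' deposited table, and did not pass (DESeq2 adjusted p = 0.138). Its implied group means were 130 normalized counts in Cgas-/- marrow and 189 in dKO marrow, and its 95% interval ran from -0.86 to -0.21. It was much rarer than Csf2rb, and counting alone accounted for 24.0% of its squared standard error, against 9.42% for Csf2rb. The inverse-variance mean of both log2 fold changes was -0.45, given with no test because the 2 genes were read in the same 8 libraries and may share reads.

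Among the alpha subunits, Csf2ra, which gives GM-CSF its specific binding, had implied means of 956 normalized counts in Cgas-/- marrow and 1128 in dKO marrow. It was at -0.24 ± 0.0877 in the authors' deposited table without passing (DESeq2 adjusted p = 0.273). Il3ra was at -0.01 ± 0.282 (DESeq2 adjusted p = 1.0) and Il5ra at -0.17 ± 0.50 (adjusted p = 0.984, DESeq2) by the authors' deposited table. The intervals of these 2 rare subunits, -0.56 to 0.55 and -1.15 to 0.81, take in the values of all the other receptors, so whether they moved with the rest was not detectable with this precision. Counting accounted for 27.8% of the squared standard error of Il3ra and 28.3% of that of Il5ra. To be called, Il3ra would have had to differ by 2.04-fold and Il5ra by 3.54-fold.

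Csf3r, the most abundant of the receptor mRNAs in marrow, had implied means of 1541 normalized counts in Cgas-/- marrow and 1844 in dKO marrow. Its log2 fold change of -0.26 ± 0.113 in the authors' deposited table did not pass (DESeq2 adjusted p = 0.421). Its standard error was larger than that of 93.6% of the 500 genes nearest to it in mean, and counting accounted for 4.86% of its square. The rest reflects the dispersion that DESeq2 fitted, not a spread seen in values per library.

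**Figure D2:**
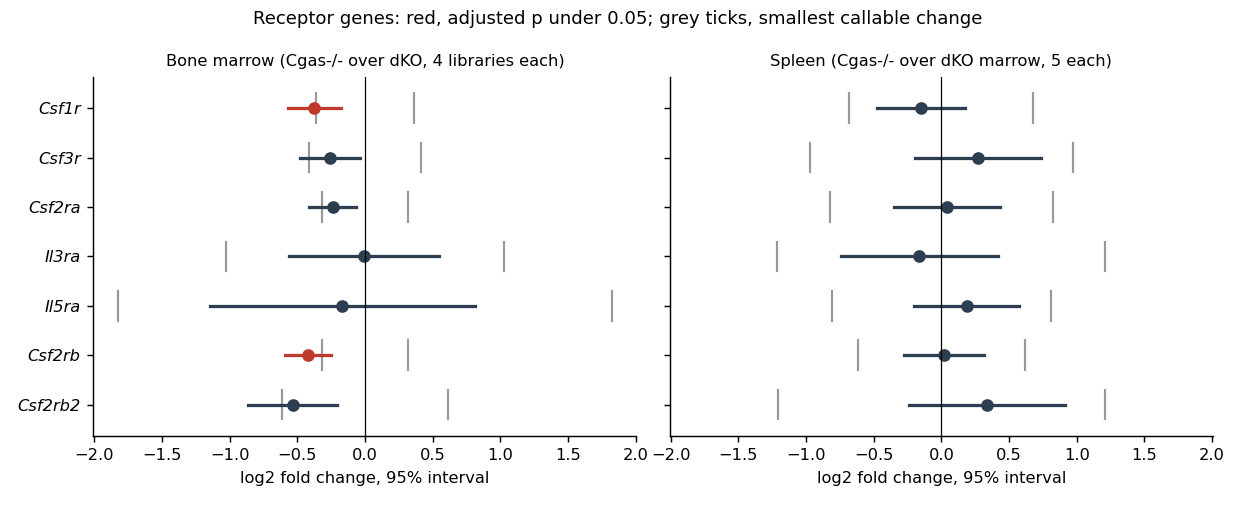
Log2 fold changes of the 7 receptor genes with 95% intervals, Cgas-/- over dKO, in bone marrow (left, 4 libraries a group) and spleen (right, 5 a group); red marks a DESeq2 adjusted p under 0.05, and grey ticks mark the smallest change that would have been called at that gene's standard error. In bone marrow Csf2rb (-0.42) and Csf1r (-0.37) lie beyond their ticks, and in spleen no gene does.

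In spleen, where the marrow genotype differed and all recipients were dKO, none of the 7 receptor genes changed past the test. The Y-linked transcripts given above also separated these groups, so the sex of the cells cannot be told apart from the marrow genotype. Csf1r and Il3ra had log2 fold changes below 0 and the other 5 above 0, with a median of 0.04, against -0.03 over all 21830 genes and 0.0057 over the 11118 with a mean of at least 20, which all 7 receptors reach. By the authors' deposited table, 0 of 7 passed a DESeq2 adjusted p of 0.05, where 0.133% of all genes passed, and 0 of 7 had an unadjusted p under 0.05, where 3.02% of all genes had one. Csf1r, the receptor on which splenic macrophages depend, was at -0.15 ± 0.166 in the authors' deposited table, with implied means of 715 normalized counts in spleens with Cgas-/- marrow and 792 in spleens with dKO marrow. Its standard error exceeded that of 98.6% of the 500 genes nearest in mean, so the 95% interval of -0.47 to 0.18 still holds the value seen in bone marrow.

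Csf2rb was at 0.02 ± 0.151 in the authors' deposited table for spleen, with implied means of 270 normalized counts with Cgas-/- marrow and 267 with dKO marrow. Its 95% interval of -0.27 to 0.32 does not hold the -0.42 of bone marrow. The largest log2 fold changes in spleen were those of Csf2rb2 (0.34 ± 0.295) and Csf3r (0.27 ± 0.237) in the authors' deposited table, both with unadjusted p near 0.25 and means under 40 normalized counts. Csf2ra (0.04 ± 0.201), Il5ra (0.19 ± 0.198) and Il3ra (-0.16 ± 0.296) were within 1 standard error of 0 in the authors' deposited table. All 7 genes had a DESeq2 adjusted p of 1.0 there, and the smallest change that could have been called ran from 1.53-fold for Csf2rb to 2.32-fold for Il3ra.

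The difference between the 2 comparisons was tested directly, as the log2 fold change in spleen less that in bone marrow. The spleens came from irradiated and transplanted dKO mice and the marrow was untransplanted, and Y-linked transcripts separated the spleen groups. Tissue cannot be told apart from these here. It was above 0 for all but Il3ra. Csf2rb2 differed by 0.87 ± 0.339 (unadjusted p = 0.0103), Csf2rb by 0.44 ± 0.174 (unadjusted p = 0.0113) and Csf3r by 0.53 ± 0.263 (unadjusted p = 0.0427). None passed when adjusted over all 13777 genes (adjusted p = 0.865, 0.883 and 0.99). Among all genes 0.0581% passed, and 4.80% had an unadjusted p under 0.05, against 3 of the 7 receptors. Csf1r, called in bone marrow alone, differed by 0.23 ± 0.193 with a 95% interval of -0.15 to 0.60, so its effects in the tissues were not shown to differ.

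The receptors were set beside markers of the cells that carry them. For the counts by unadjusted p that follow, 4.65% of all genes were lower and 4.19% higher in marrow at a p under 0.05, and 1.85% lower and 1.17% higher in spleen. In bulk samples fewer cells of a type and less RNA per cell cannot be told apart. Of 14 monocyte and macrophage markers in bone marrow, 10 were below 0, with a median log2 fold change of -0.19 and summed implied levels of 16188 normalized counts in Cgas-/- marrow and 19436 in dKO marrow. Ly6c2, a surface protein of classical monocytes, was its 1 called gene (-0.33 ± 0.0794, adjusted p = 0.0116 by DESeq2, from the authors' deposited table). Of 14 neutrophil markers 13 were below 0 (median -0.11) with none called by DESeq2 and 1 lower at an unadjusted p under 0.05. Of 8 eosinophil markers 7 were below 0 (median -0.40), with summed levels of 2323 in Cgas-/- marrow and 2874 in dKO marrow, and Ear1 and Ear6 were called lower (-1.05 ± 0.240 and -0.98 ± 0.234 in the authors' deposited table), 2 close paralogs whose single values are uncertain. By unadjusted p under 0.05, 3 of the 8 eosinophil markers were lower and 0 higher.

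The list medians for markers of other cells lay above or near 0. Single log2 fold changes ran from -0.66 to 0.32 in the plasmacytoid dendritic cell list and from -0.39 to 0.37 in the T cell list. All 8 erythroid markers in bone marrow were above 0, with a median of 0.76 and summed levels of 62587 in Cgas-/- marrow and 33527 in dKO marrow. Hbb-bt was the 1 called, at 0.84 ± 0.223 in the authors' deposited table, and is one of several near-identical globin genes. By unadjusted p under 0.05, 6 of the 8 erythroid markers were higher and 0 lower. Basophil and mast cell markers (4 of 6 above 0, median 0.05), plasmacytoid dendritic cell markers (3 of 6, median 0.00), B cell markers (5 of 6, median 0.05) and T cell markers (3 of 6, median 0.02) held no call in marrow by DESeq2. At an unadjusted p under 0.05, 1 plasmacytoid dendritic cell marker was lower and 2 were higher, against 0 in the basophil and mast cell, B cell and T cell lists. The part of these shifts in the receptor values was not tested.

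In spleen the marker lists held no call by DESeq2, and at an unadjusted p under 0.05 only 2 neutrophil, 1 eosinophil and 1 basophil and mast cell marker were lower and 1 T cell marker was higher. Monocyte and macrophage markers had a median of -0.12 (11 of 14 below 0), neutrophil markers -0.51 (13 of 14 below 0) and eosinophil markers -0.20 (7 of 8 below 0). Of all spleen genes 55.0% were below 0, and of those with a mean of at least 20, 48.0%. Means in the eosinophil list ran from 1.03 (Epx) to 147 (Prg2) normalized counts. The rare Epx, Ear1 and Ear6 had standard errors of 1.58, 1.13 and 1.19. The count and median of this list are therefore weak evidence of a direction. Those of the neutrophil list are weak as well, since its standard errors ran from 0.295 to 0.560. Csf3r, which neutrophils carry, was listed above 0 in spleen while most neutrophil markers were below it. Erythroid markers had a median of -0.69 with all 8 below 0, basophil and mast cell markers -0.33, plasmacytoid dendritic cell markers -0.13, B cell markers 0.03 and T cell markers 0.07.

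**Figure D3:**
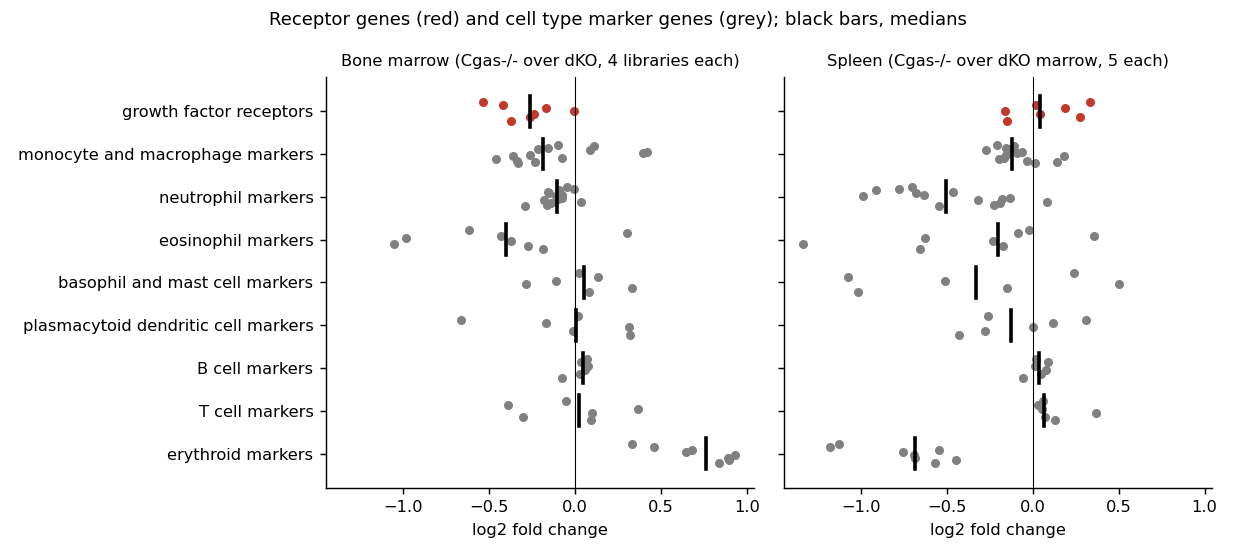
Log2 fold changes of single genes, Cgas-/- over dKO, for the 7 receptors (red) and for 8 lists of cell type markers (grey), in bone marrow (left) and spleen (right); black bars are medians. No error is shown. In bone marrow the receptor median of -0.26 lies between those of the monocyte and macrophage (-0.19) and the eosinophil (-0.40) markers. In spleen it is 0.04 while the neutrophil markers, none of them called, are at -0.51.

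Upstream and downstream of the receptors, no measured gene of the 5 lists of ligands, kinases, adaptors, targets and transcription factors passed the test in either tissue. Of the ligands, Csf1, which encodes M-CSF, had in the authors' deposited tables -0.05 ± 0.232 for marrow and 0.32 ± 0.212 for spleen, and Il34, the other ligand of the M-CSF receptor, -0.39 ± 0.625 and -0.46 ± 0.893. Neither passed in either tissue or had an unadjusted p under 0.05. Csf2, Csf3, Il3 and Il5 had no values in either tissue, so 2 of the 6 ligands were measured. Of 12 kinases and STATs used by the receptors, 10 were below 0 in bone marrow (median -0.09) and 5 in spleen (median 0.01), and none was called by DESeq2. In marrow the JAK family gene Tyk2 was at -0.27 ± 0.127 in the authors' deposited table (adjusted p = 0.513, DESeq2). In spleen Jak2 was at 0.16 ± 0.0712 in the authors' deposited table (unadjusted p = 0.0295), at a DESeq2 adjusted p of 1.0. Of these 12 genes, 2 were lower in marrow and 1 was higher in spleen at an unadjusted p under 0.05, against 4.65% and 1.17% of all genes.

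Adaptors and negative regulators also held no call by DESeq2, with 8 of 12 below 0 in bone marrow (median -0.10) and 4 of 12 in spleen (median 0.02). In marrow, the adaptor gene Grb2, which links activated receptors to Ras, was at -0.18 ± 0.0610 (DESeq2 adjusted p = 0.184) and Sh2b3, an inhibitor of JAK2 signalling, at -0.31 ± 0.105 (adjusted p = 0.194, DESeq2) by the authors' deposited table. These were its 2 genes with an unadjusted p under 0.05 in marrow, and in spleen there were 0. The spleen values with the smallest p were 0.07 ± 0.0608 for Grb2 and 0.13 ± 0.0762 for the ubiquitin ligase gene Cblb in the authors' deposited table.

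Targets of STAT5 and STAT3 lay on both sides of 0 in marrow, with 4 of 10 below 0 and none called by DESeq2. Socs1, a feedback inhibitor, was at 0.59 ± 0.259 and the growth regulator Myc at 0.49 ± 0.214 in the authors' deposited table, neither past the test (adjusted p = 0.437 and 0.414, DESeq2). In spleen, Mcl1, which encodes a survival protein of the BCL2 family, was at 0.15 ± 0.0656 and Myc at 0.36 ± 0.159 in the authors' deposited table, with unadjusted p of 0.0196 and 0.0223. By unadjusted p under 0.05, 2 targets were lower and 3 higher in marrow (4.65% and 4.19% of all genes), and 3 were higher in spleen (1.17% of all genes).

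Of 12 genes listed as myeloid transcription factors, 8 were above 0 in marrow (median 0.10), with none called by DESeq2. The 8 included Gata1, Gata2 and Myb, so the count is not of granulocyte and monocyte factors alone. The 4 below 0 were Spi1, Cebpa, Runx1 and Gfi1. At an unadjusted p under 0.05, 3 were higher (Irf8, Myb and Gata2) and 0 lower, against 4.19% and 4.65% of all genes. Irf8, needed for monocyte and dendritic cell development, was at 0.23 ± 0.0741 (DESeq2 adjusted p = 0.173) and Myb, a progenitor factor, at 0.15 ± 0.0721 (adjusted p = 0.495, DESeq2) by the authors' deposited table. In spleen Gata1, the erythroid factor, was at -1.01 ± 0.521 and Klf4, a monocyte factor, at 0.37 ± 0.197 in the authors' deposited table, and none of the 12 had an unadjusted p under 0.05. Among 12 other hematopoietic cytokine receptors, 8 were above 0 in marrow (median 0.10). Flt3, the receptor tyrosine kinase of early progenitors and dendritic cell precursors, rose in Cgas-/- marrow, to implied means of 266 normalized counts against 162 in dKO marrow (0.72 ± 0.153, adjusted p = 0.00177 by DESeq2, from the authors' deposited table). Flt3 and Csf1r belong to the same class of receptor kinases and were called in opposite directions. Il7r, the receptor of early lymphoid cells, was at 0.20 ± 0.0968 in the authors' deposited table and did not pass (adjusted p = 0.515, DESeq2), and in spleen Epor, the erythropoietin receptor gene, was at -0.67 ± 0.562 in the authors' deposited table, with a mean of 15.3 normalized counts.

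The beta subunit genes also share a neighbourhood. The nearest protein-coding gene before them that both tables list is Ncf4, which encodes a subunit of the phagocyte NADPH oxidase. In bone marrow it was at -0.26 ± 0.0925 in the authors' deposited table, lower at an unadjusted p of 0.00496 but not past the test (DESeq2 adjusted p = 0.236), and in spleen at 0.02 ± 0.0776. Tst, on the other side, was at -0.31 ± 0.483 in marrow with a mean of 19.9 normalized counts in the authors' deposited table. Around the other receptors, the nearest protein-coding genes that both tables list and that do not overlap a receptor were taken. None of these had an unadjusted p under 0.05 in either tissue. Hmgxb3, which overlaps Csf1r, was therefore left out, and some neighbours were distant. Ppp4r2, for example, ends at 100869934, while Il5ra begins at 106710357.

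Csf2rb had the largest summed squared Wald score of the 7, and the genes closest to it in their pair of Wald scores were sought among 9999 with a mean of at least 20 in both tables. These were Oasl1 (distance 0.229), Oas2 (0.420) and Ly6c2 (0.630). In the authors' deposited tables their bone marrow log2 fold changes were -1.27 ± 0.276, -1.20 ± 0.253 and -0.33 ± 0.0794, and their spleen values were 0.06 ± 0.259, 0.17 ± 0.300 and 0.01 ± 0.161. Oasl1 and Oas2 are interferon-stimulated members of a family of close paralogs. Likeness over only 2 comparisons is a weak description, and it matches precision as well as size.

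Promoters are shown as a description of sequence only, and no link to the fold changes was tested. RefSeq promoter sequences for GRCm38.p6 were matched by symbol for 5 of the 7 genes. Csf1r and Csf2rb, the 2 called in marrow, had no entry, so each gene searched here did not pass. The letters GAGGAA, a core bound by the myeloid factor PU.1, were sought on both strands in the 250 bases before each RefSeq start. Of 32851 promoters, 23.3% hold them there. They were present in 3 of the 5, Csf3r, Csf2ra and Csf2rb2, which are printed 5′ to 3′ on the gene's strand with the match in capitals. The coordinates are chr4:126024409-126024658 (plus strand), chr19:61228419-61228668 (minus) and chr15:78305722-78305971 (minus).
Csf3r: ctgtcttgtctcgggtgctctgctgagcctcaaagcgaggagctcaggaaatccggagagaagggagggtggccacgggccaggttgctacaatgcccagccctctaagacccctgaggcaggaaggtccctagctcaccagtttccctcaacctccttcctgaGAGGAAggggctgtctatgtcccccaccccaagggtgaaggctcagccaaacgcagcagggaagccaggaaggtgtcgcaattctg
Csf2ra: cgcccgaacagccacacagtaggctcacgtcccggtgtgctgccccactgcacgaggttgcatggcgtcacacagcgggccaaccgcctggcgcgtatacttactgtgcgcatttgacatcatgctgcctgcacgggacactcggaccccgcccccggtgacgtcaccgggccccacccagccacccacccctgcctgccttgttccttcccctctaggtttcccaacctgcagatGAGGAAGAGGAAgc
Csf2rb2: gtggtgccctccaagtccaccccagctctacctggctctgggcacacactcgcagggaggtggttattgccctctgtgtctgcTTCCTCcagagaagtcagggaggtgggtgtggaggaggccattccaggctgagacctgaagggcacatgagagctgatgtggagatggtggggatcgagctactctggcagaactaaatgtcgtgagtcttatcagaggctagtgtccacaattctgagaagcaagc
The match begins 86 bases before the RefSeq start in Csf3r and 167 bases before it in Csf2rb2, where it reads on the opposite strand. Csf2ra holds 2 adjoining matches, which begin 14 and 8 bases before the RefSeq start. The GENCODE starts of Csf3r (126024550) and Csf2ra (61228429) lie inside these windows. By GENCODE, the Csf3r match and the Csf2ra match nearest the start therefore lie within the gene. The C/EBP letters TTNNGNAA, which 36.8% of promoters hold, were found in 2 of the 5 (Csf2ra and Il3ra), and the RUNX letters TGTGGT, held by 14.05%, in 0. The motifs were chosen after the fold changes were known. A match is a description of these letters and no measurement of binding, and Spi1, which encodes PU.1, stood in the authors' deposited tables at -0.15 ± 0.0825 for marrow and 0.04 ± 0.10 for spleen.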

How the data were processed

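RNA from cells of mouse bone marrow and spleen was sequenced as QuantSeq forward libraries, as the labels' protocols state, and the titles of the 18 libraries gave their groups. STAR 2.6.1, bcl2fastq 1.8.4, Partek, DESeq2 and the build mm10 were used by the authors, per the submitters' processing notes; the sources used here do not give the counting tool, annotation, strand or gene filter. Per the file headers, the authors deposited for each tissue a mean normalized count (a signal, the mean over every library compared, scaled by size factors), a log2 fold change and its standard error, a Wald score with its p-value and adjusted p-value, and a ranking score. Recomputing the Wald score, p and Benjamini-Hochberg values from the deposited columns gave what was deposited. The tables hold comparisons only, so library depths stay unknown and counts could not be tested.

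The authors' DESeq2 results were used as deposited, at an adjusted p of 0.05 over all genes of a table. Computed here were 95% normal intervals, group means (from the deposited mean and fold change, with equal numbers of libraries), the counting part of each squared standard error, the fitted SD per library (from the rest of it, which reflects the authors' DESeq2 dispersion estimates), the smallest callable change, and the difference between tissues with a two-sided normal p. All 7 receptors are described. From each pathway list, called genes and those with the 2 smallest adjusted p are named (in spleen, where adjusted p are tied, by unadjusted p), and from each marker list called genes only; some genes that this rule names are left unreported, though counts and medians include them; genes named for their position or with the promoter motif were chosen after their values were seen. Gata1, Gata2 and the transcription factors below 0 in marrow are named outside this rule, to show what that list holds. The receptors and the 14 lists (6 of pathways, 8 of markers) were chosen with earlier results of these data known. The steps were tested on simulated data. Calculations used Python 3.11.15, pandas 2.3.3, numpy 2.4.6, scipy 1.17.1, biopython 1.88 and matplotlib 3.10.9.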

Additional observations from a re-analysis of the deposited data

How the results depend on the processing

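The count of receptors called in bone marrow, 2 of 7, was kept when p was adjusted over genes with a mean of at least 20 (6 receptors tested) or at least 100 (5 tested), after subtracting the median log2 fold change (-0.0029), and at an adjusted p of 0.1. It was 0 with a t distribution of 6 degrees of freedom, 1 (Csf2rb) with Wald scores divided by their robust spread, and 5 at an unadjusted p of 0.05. Over these alternatives the adjusted p of Csf2rb ran from 9.35e-04 to 0.986 and that of Csf1r from 0.0311 to 0.986. Over all genes the bone marrow calls numbered 77 as deposited, 1 with the t distribution and 32 with the robust spread; in spleen they numbered 29 as deposited, 11 with a t distribution of 8 degrees of freedom and 34 with the robust spread of 0.919. In spleen 0 receptors were called under each alternative run. In the difference between tissues 0 were called, except 3 at an unadjusted p of 0.05. The t distribution ignores the information DESeq2 shares between genes. Of these alternatives, subtracting the median is the 1 that alters a fold change, by under 0.01. No paired analysis was possible because the deposited tables used here hold comparisons and no values per library; for the same reason no replicate was left out.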
